A study of Mus musculus with 16 samples.

Results

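Leptin, insulin and many cytokine and growth hormone signals reach the cell nucleus through a small set of receptors, adaptors, STAT transcription factors and feedback inhibitors. The 10 genes described here were chosen by name from that set, *Lepr*, *Insr*, *Irs1*, *Irs2*, *Stat3*, *Stat5a*, *Stat5b*, *Socs2*, *Socs3* and *Cish*, and all 10 were among the 17351 genes with a symbol in the pituitary expression table. They were measured by bulk RNA-seq of the pituitary gland in 16 female mice aged 27 weeks, 4 to a group. The mice were *Esr1* fl/fl controls and *Esr1*Nkx2-1Cre mutants, each on chow, the standard diet (SD), or on a high-fat diet (HFD) for 17 weeks. All mice carried the floxed *Esr1* alleles, and the mutants also carried a Cre driven by *Nkx2-1*, which removes oestrogen receptor alpha from any cell that has ever expressed *Nkx2-1*, a domain not limited to the pituitary. The colony had a mixed CD-1;129P2 background.

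Leptin binds the receptor encoded by *Lepr*, whose associated JAK2 kinase activates STAT3, and STAT3 in turn induces *Socs3*, an inhibitor of the same receptor. Insulin binds the receptor encoded by *Insr*, which phosphorylates the adaptors IRS1 and IRS2 and so starts the PI3 kinase and AKT cascade. Growth hormone and prolactin, both made in the pituitary, signal through JAK2 to STAT5A and STAT5B, which induce *Cish* and *Socs2*, inhibitors that dampen the signal.

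Expression is given in the deposited normalized units, which summed to between 908138 and 1334746 per mouse. In genes with a single annotated transcript, 1 read was worth between 0.0461 and 0.0688 units divided by the transcript length in kilobases. A read is thus worth less in a longer transcript. By this *Irs1* rested on about 139 to 677 reads per mouse and *Irs2* on about 802 to 2926. *Esr1* itself averaged 18.6 ± 5.77 in mutants against 38.9 ± 7.32 in controls on SD (± SD, 4 mice each), and 29.0 ± 5.53 against 37.3 ± 9.29 on HFD. On SD the groups did not overlap, as in 10.6% of all genes (exact two-sided permutation p = 0.0286). On HFD they overlapped, at 21.5 to 33.4 in mutants and 23.6 to 43.4 in controls (exact two-sided permutation p = 0.2). Lactotroph, somatotroph, gonadotroph, thyrotroph and corticotroph markers were all above 0 in every mouse. Of the libraries, the mutant P357 on SD stood apart, with 8.95% of its signal from mitochondrially encoded genes against 3.54% to 4.59% in the others and with 532 genes at 0. The control P392 on HFD was the highest of the 4 controls on HFD for *Socs2*, *Stat5b*, *Irs1*, *Irs2* and *Insr*. The summed level of 4 melanotroph markers of the intermediate lobe was 1678 in P357 and 3496 in P392, against 11352 to 42252 in the other mice; the part of these features in the results was not tested.

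No member passed an adjusted p of 0.05 in any of the 7 comparisons made with limma over 14340 genes. Between mutants and controls on SD, 1.84% of all genes passed (1.37% higher and 0.474% lower in mutants), and 2 members had an unadjusted p under 0.05 where 19.9% of genes did. On HFD, between HFD and SD in either genotype, and in the interaction of genotype and diet, 0 genes passed and 10.2%, 4.12%, 5% and 4.2% of genes had an unadjusted p under 0.05; 0 members did except in the diet comparison within mutants, where 1 did. Averaged over the genotypes, 0.00697% of genes passed between the diets and 5.1% had an unadjusted p under 0.05, as did 1 member. Averaged over the diets 6.54% passed between mutants and controls (4.48% higher and 2.06% lower in mutants), and 22.7% had an unadjusted p under 0.05, as did 2 members. Between HFD and SD no member's groups were free of overlap in controls, where this held for 2.62% of genes (1.26% higher and 1.36% lower on HFD), or in mutants, where it held for 3.31% (1.88% higher and 1.44% lower). The median log2 fold change of the 10 members between mutants and controls on SD was 0.02, against -0.01 for all genes tested.

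**Figure D1:**
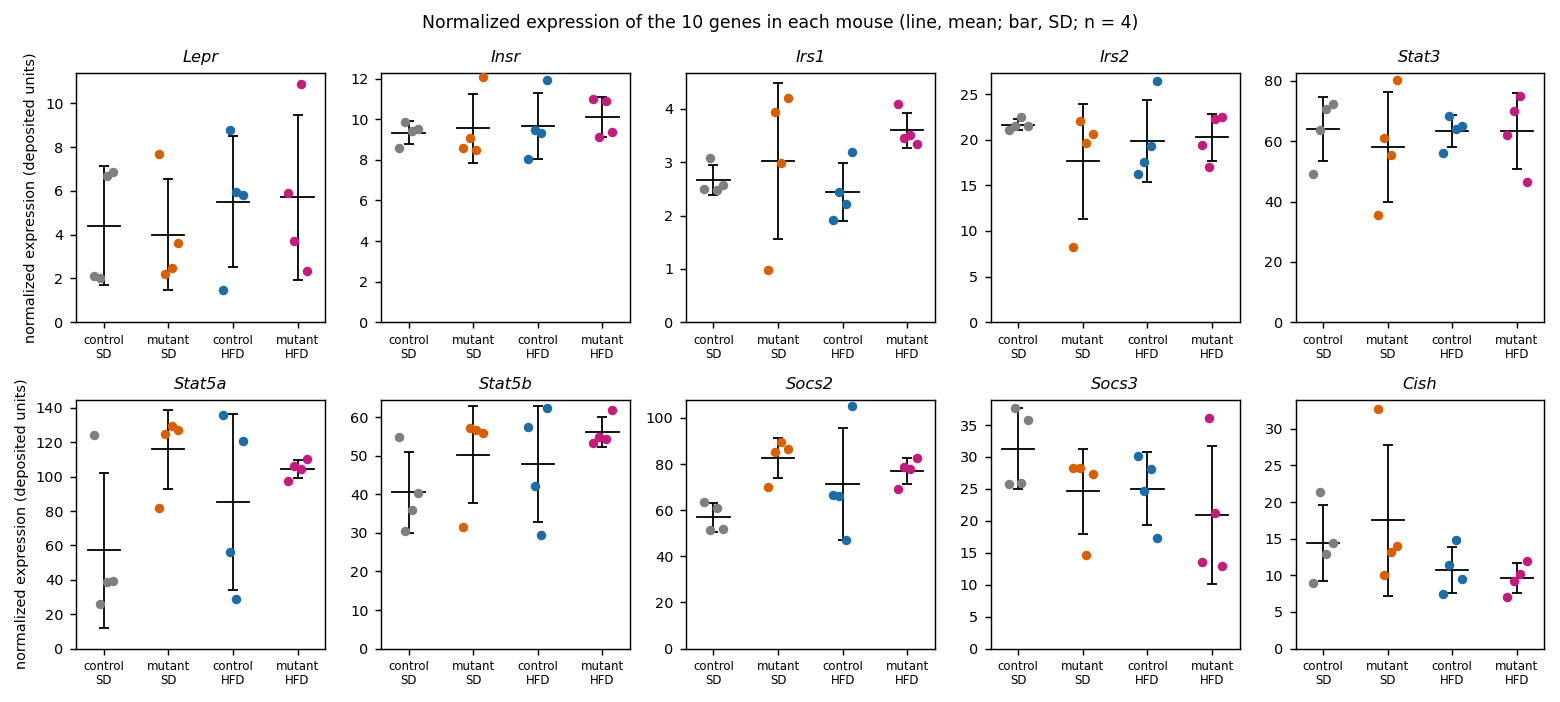
Normalized expression (deposited units, axis from 0) of the 10 genes in each mouse, 1 point per mouse, with the mean as a line and the SD as a bar (n = 4). *Socs2* on SD and *Irs1* on HFD are the genes whose mutants and controls do not overlap, and *Stat5a* in controls ranges from 26.2 to 136.

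Neither receptor passed the test in any comparison. *Lepr* (ENSMUSG00000057722, chromosome 4 of GRCm38, 101717404 to 101815352, + strand) ranged from 1.48 to 10.9 over the 16 mice, and on SD its mean was 4.41 ± 2.71 for controls and 4.0 ± 2.54 for mutants (± SD, 4 mice each), while on HFD it was 5.51 ± 3.01 and 5.72 ± 3.76. Low and high values occurred in all 4 groups. *Insr* (ENSMUSG00000005534, chromosome 8, 3122061 to 3279617, - strand) was steadier, between 8.02 and 12.1, with a coefficient of variation of 12.4% over all mice.

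Of the adaptors, *Irs1* was higher in every mutant on HFD than in every control on HFD, but the fitted difference did not pass the test. *Irs1* (ENSMUSG00000055980, chromosome 1, 82233101 to 82291416, - strand) was 4.08, 3.45, 3.51 and 3.35 in the mutants and 1.91, 2.44, 2.22 and 3.2 in the controls on HFD. The groups did not overlap, as in 5.31% of all genes here (2.96% higher and 2.34% lower in mutants). In limma this log2 difference of 0.49 had a standard error of 0.28 and an adjusted p of 0.594, and an exact two-sided permutation of the mice gave p = 0.0286, which is as small as 4 mice against 4 can give. A share of 30.6% of the 31-base words of *Irs1* also occurs in *Gm9747*, so reads of *Irs1* are uncertain. On SD the mutant values ran from 0.978, in P357, to 4.21 and covered those of the controls, 2.48 to 3.08. *Irs2* (ENSMUSG00000038894, chromosome 8, 10984681 to 11008458, - strand) averaged 21.6 ± 0.604 for controls and 17.6 ± 6.31 for mutants on SD (± SD, 4 mice each), then 19.9 ± 4.52 and 20.3 ± 2.58 on HFD. Its lowest value, 8.29, was again in P357, and the other mutants on SD lay between 19.6 and 22.0.

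Among the STAT genes, *Stat5a* had the largest fitted fold change of the members and, among controls on SD, the largest coefficient of variation, 79.2%. *Stat5a* (ENSMUSG00000004043, chromosome 11, 100859351 to 100885169, + strand) was 124, 26.2, 38.9 and 39.1 in controls on SD and 81.8, 125, 129 and 127 in mutants on SD. The mutants and controls overlapped because of 1 control, P356, which at 124 lay beside the mutants. Mutants exceeded controls by 1.26 on the log2 scale, with a standard error of 0.45, an adjusted p of 0.145 in limma and an exact two-sided permutation p of 0.0571. Without P356 it was 1.72, with an adjusted p of 0.0231 in limma, the only 1 of 16 removals of a single mouse to pass. In that fit 826 of all genes passed. The lowest difference of the 16 removals was 0.98, without P358, with an adjusted p of 0.335 in limma. Over both diets the excess was 0.90, with a standard error of 0.32, an adjusted p of 0.107 in limma and, permuting mice within diets, an exact p of 0.0335. On HFD the controls were 136, 56.4, 28.5 and 121 and the mutants 97.7, 106, 104 and 110, so 2 controls lay above all mutants and 2 below them.

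*Stat5b* (ENSMUSG00000020919, chromosome 11, 100780731 to 100850724, - strand) ranged from 29.4 to 62.5. No mouse had a value between 42.2 and 53.4, and the 6 mice below were 3 controls on SD, 2 controls on HFD and the mutant P357. In *Stat5a*, the 5 mice with the lowest values were those same 5 controls. *Stat5a* and *Stat5b* are neighbouring genes that share part of their sequence. Of the 31-base words, 11.5% in *Stat5a* transcripts and 15.1% in *Stat5b* transcripts occur in the other gene. The division of reads between the 2 genes is therefore uncertain. The 3' ends of *Stat5a* and *Stat3* overlap on opposite strands, and the use of strand in counting is not given in the sources used here. *Stat3* (ENSMUSG00000004040, chromosome 11, 100885098 to 100939540, - strand) averaged 64.1 ± 10.6 for controls and 58.1 ± 18.4 for mutants on SD (± SD, 4 mice each), then 63.4 ± 5.19 and 63.4 ± 12.5 on HFD.

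**Figure D2:**
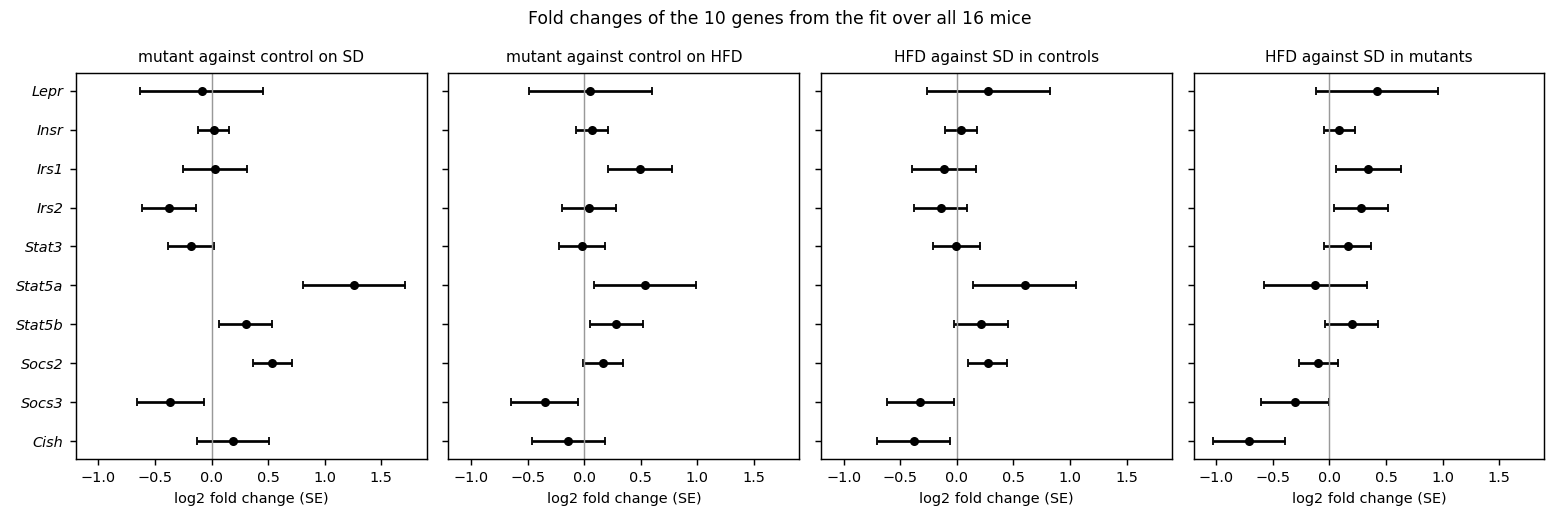
Log2 fold changes of the 10 genes in 4 comparisons, from the fit over all 16 mice, with the standard error as a bar. On SD, *Stat5a* at 1.26 and *Socs2* at 0.54 lie farthest above 0, and between HFD and SD in mutants *Cish* at -0.71 lies farthest below it.

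Of the inhibitors, *Socs2* was higher in every mutant on SD than in every control on SD, but the fitted difference did not pass the adjusted threshold. *Socs2* (ENSMUSG00000020027, chromosome 10, 95385362 to 95417180, - strand) was 63.6, 51.3, 60.9 and 51.8 in the controls and 70.2, 85.0, 89.5 and 86.3 in the mutants. The log2 difference was 0.54 with a standard error of 0.17, a fold of 1.45, and its adjusted p was 0.114 in limma and its exact two-sided permutation p 0.0286. Of all genes, 10.6% did not overlap in this comparison (6.09% higher and 4.5% lower in mutants). On HFD the controls ran from 47.3 to 105 and held all 4 mutants, 69.1 to 82.8, within their range, and the highest control was P392. Over both diets the log2 difference was 0.35 with a standard error of 0.12, an adjusted p of 0.101 in limma and an exact permutation p of 0.0208 within diets. Without P357 and P392 the difference on SD was 0.61, with an adjusted p of 0.00969 in limma, and 953 of 14330 genes passed. This was the only 1 of 14 alternatives to pass. Over the 14, the difference ran from 0.43 to 0.61 and the adjusted p from limma reached 0.212. P392 is not in the comparison on SD, and without it alone the difference stayed at 0.54. Its standard error was then 0.12 and its adjusted p 0.0202 in limma, where 774 of all genes passed. Of 16 removals of a single mouse, this was the only 1 past the threshold, and over the 16 the difference ran from 0.49 to 0.61.

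*Cish* had the lowest fold change between HFD and SD among the members, and it did not pass the adjusted threshold. *Cish* (ENSMUSG00000032578, chromosome 9, 107296026 to 107302784, + strand) was 32.7, 10.1, 13.2 and 14.0 in mutants on SD and 6.98, 9.22, 10.2 and 12 in mutants on HFD. The groups overlapped and the highest value was that of P357. In mutants the log2 difference was -0.71, with a standard error of 0.32, an adjusted p of 0.813 in limma and an exact two-sided permutation p of 0.0857. Without P357 it was -0.37, with an unadjusted p of 0.191 in limma. Over both genotypes it was -0.55, with a standard error of 0.23, an adjusted p of 0.91 in limma and an exact permutation p of 0.0363 within genotypes; without P357 it was -0.37. *Socs3* (ENSMUSG00000053113, chromosome 11, 117966079 to 117970047, - strand) averaged 31.3 ± 6.32 for controls and 24.6 ± 6.69 for mutants on SD (± SD, 4 mice each), then 25.1 ± 5.69 and 20.9 ± 10.8 on HFD.

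STAT factors bind the palindrome TTCNNNGAA, known as a GAS element. In promoter windows from 250 bases before to 50 bases after the start site (RefSeq, GRCm38.p6), *Socs3* held 1 match and *Cish* 2 on either strand, while 8.3% of all 32851 windows held at least 1. Promoter windows were at hand for 8 of the 10 members, 11 windows in all, and none of the other windows held a match. *Insr* and *Socs2* had no window and were not searched. The matches are shown because *Socs3* and *Cish* are feedback genes of the pathway. The palindromes are in capitals and every sequence is written 5' to 3' on the strand of the gene.
Socs3, chr11:117969512-117969520, - strand: TTCTTAGAA
Cish, chr9:107296659-107296678, + strand: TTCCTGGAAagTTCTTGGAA
The *Socs3* match starts 154 bases before the start site, and the 2 *Cish* matches begin 0 and 11 bases after it. No window of a member held the consensus palindrome of the oestrogen response element, which occurred in 0.07% of all windows, or the FoxO motif GTAAACA, which occurred in 3.65%. Absence of a match says only that these letters are not in this window.

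Correlations between members were examined with group means removed, over 45 pairs and with 100000 permutations of mice within groups. By this test 4 pairs had an adjusted p under 0.05 (0.0243 to 0.0354): the correlation was positive for *Stat5a* with *Stat5b* and for *Socs2* with *Stat5b*, and negative for *Cish* with *Stat5a* and with *Stat5b*. On ranks the adjusted permutation p was 0.00675 for *Stat5a* with *Stat5b* and 0.0508 for each of the other 3. *Socs2* with *Stat5a*, not among the 4, also passed on ranks (adjusted permutation p = 0.0112), while its adjusted permutation p by Pearson's r was 0.122. All 4 pairs include *Stat5a* or *Stat5b*, and their number changed with the processing, from 0 to 2 in the alternatives. Because mice fell on both sides of the gap in *Stat5b*, r is given within each side only, as a description. Group means were not removed there, so r also holds differences between groups. Of 90 relations within sides, 0 had an adjusted permutation p under 0.05. The division was chosen after the values were seen, and it narrows the range of *Stat5b*. The 6 mice below the gap are too few for a single relation to pass. Among the 6 mice below the gap, r was 0.31 for *Stat5a* with *Stat5b*, 0.34 for *Socs2* with *Stat5b*, 0.36 for *Cish* with *Stat5a* and -0.62 for *Cish* with *Stat5b*. Among the 10 mice above it, r was 0.30, 0.62, 0.28 and 0.28 for the same pairs.

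**Figure D3:**
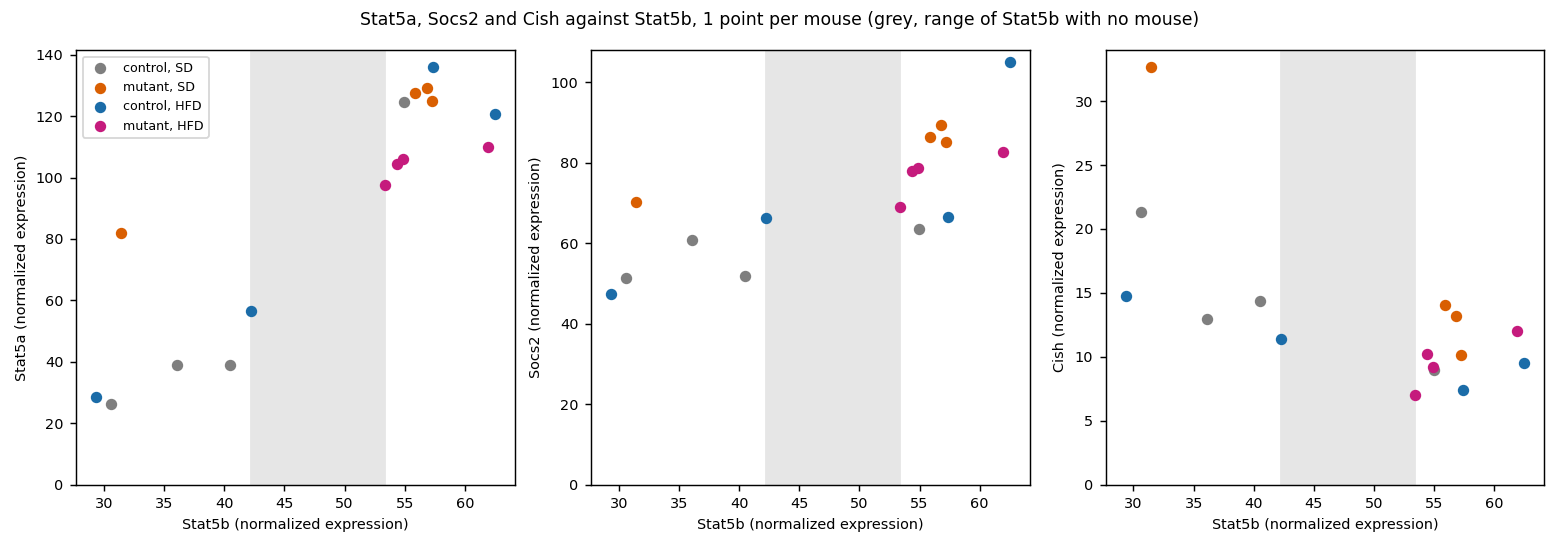
*Stat5a*, *Socs2* and *Cish* against *Stat5b* (normalized expression, 1 point per mouse, coloured by group), with the range of *Stat5b* that holds no mouse in grey. *Stat5b* has no value between 42.2 and 53.4, and the mice below it are 5 controls and the mutant P357.

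The genes most alike in pattern over the 16 mice, by Pearson's r of log2 values, were *Mindy4b-ps* (r = 0.98), *G6pdx* (0.97) and *Tmem266* (0.96) for *Stat5a*, and *Rerg* (0.96), *5031439G07Rik* (0.95) and *Prkce* (0.95) for *Stat5b*. Spearman's rho was lower, between 0.76 and 0.90 for the genes like *Stat5a* and between 0.68 and 0.80 for those like *Stat5b*. For *Socs2* they were *Rhob* (0.92), *Creld2* (0.92) and *Tmed3* (0.91), and for *Cish* *Zfp972* (0.91), *Tmem176a* (0.90) and *Fam161b* (0.90). For *Irs1* they were *Map7d2* (0.97), *Cemip2* (0.95) and *Amotl1* (0.95), for *Irs2* *Adipor2* (0.93), *Dync1li2* (0.92) and *Efcab14* (0.91; Spearman's rho 0.66, 0.61 and 0.65 for these 3), and for *Stat3* *Crebrf* (0.90), *Ube2l6* (0.90) and *Fam168b* (0.87). *Socs3* was most like *Klhdc1* (0.86), *Rnf31* (0.84) and *Gm49486* (0.79), *Insr* most like *Secisbp2l* (0.89), *Slc39a1* (0.84) and *Rnf130* (0.83), and *Lepr* most like *Bahcc1* (0.79), *Crlf3* (0.78) and *Gm20721* (0.77).

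Single other genes of these pathways passed the test between mutants and controls. Their counts are to be read beside the 1.84% of all genes that passed on SD and the 6.54% averaged over the diets, and the lists were chosen with earlier results of these data known. Of 8 leptin and gp130-family receptor genes, 1 was higher in mutants on SD, and *Cntfr*, *Lifr* and *Il6ra* were among those higher when averaged over the diets. *Cntfr*, the receptor for ciliary neurotrophic factor, averaged 16.6 ± 4.23 in mutants against 8.26 ± 1.14 in controls on SD (± SD, 4 mice each), a log2 difference of 0.95 ± 0.22 (SE) with an adjusted p of 0.0414 in limma. Of 10 other cytokine receptor genes tested, *Il4ra*, the interleukin 4 receptor, averaged 14.1 ± 3.12 in mutants against 3.29 ± 0.667 in controls on SD, a log2 difference of 1.93 ± 0.33 (SE) with an adjusted p of 0.0137 in limma, and averaged over the diets *Il4ra*, *Ghr* and *Il10rb* were higher.

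Of 35 insulin and IGF signalling genes tested, 2 rose and 1 fell in mutants on SD. *Grb10* and *Grb14*, adaptors that bind the insulin receptor and restrain it, were higher by 1.14 and 0.87 on the log2 scale (adjusted p = 0.0288 and 0.0297 in limma), and *Irs4*, a relative of *Irs1* and *Irs2*, fell by 0.89 on the log2 scale (adjusted p = 0.0317). On SD *Grb10* averaged 35.1 ± 6.31 in mutants against 15.6 ± 2.48 in controls, and *Irs4* 7.10 ± 1.56 against 13.4 ± 1.85. Averaged over the diets, *Grb10* was higher and *Irs4* lower, while *Grb14* had an adjusted p of 0.0579.

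**Figure D4:**
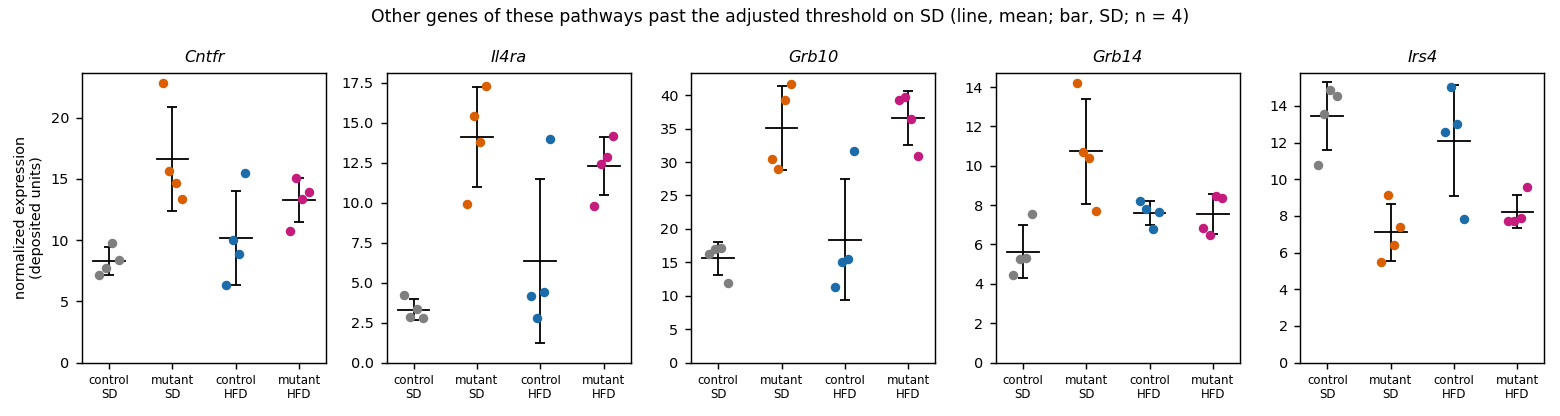
Normalized expression (deposited units, axis from 0) of the 5 other pathway genes past the adjusted threshold between mutants and controls on SD, 1 point per mouse, with mean and SD (n = 4). On SD every mutant lies on 1 side of every control in each of the 5 genes, and on HFD 1 control, P392, lies beside the mutants in *Cntfr*, *Il4ra*, *Grb10* and *Irs4*.

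Among 9 tested genes known to be induced by FoxO factors, which insulin signalling holds back, 0 passed on SD and 3 were lower in mutants averaged over the diets: *Txnip* (log2 fold change -0.63, adjusted p = 0.0248 from limma), *Ccng2* (-0.56, 0.0291) and *Cdkn1b* (-0.18, 0.0457). Among 14 genes known to be induced by STAT3 or STAT5, 0 passed on SD and 2 were higher averaged over the diets, *Cebpb* (0.53, adjusted p = 0.0315 from limma) and *Tnfrsf13b* (1.05, adjusted p = 0.0448). The level of *Tnfrsf13b* was low, with group means from 0.634 to 3.41. The median log2 fold change on SD was -0.41 for the FoxO list, 0.26 for the STAT list and -0.12 for the insulin and IGF list, against -0.01 for all genes tested, and no test of a list was run. The 4 JAK kinases, 4 other STAT factors, 9 other SOCS and PIAS inhibitors, 10 phosphatases and adaptors, and 5 ligands tested had no gene past the adjusted threshold in either comparison; *Lep*, *Ins1*, *Ins2*, *Il6* and *Osm* had no listed value. No list had a gene past it between the diets.

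Some markers of other cell types also differed between the genotypes. On SD 2 markers passed: *Fabp4*, of adipocytes, averaged 18.6 ± 7.48 in mutants against 5.83 ± 2.76 in controls (± SD, 4 mice each; adjusted p = 0.0456 in limma), and *Col25a1*, of the posterior lobe, 15.9 ± 1.49 against 7.96 ± 2.72 (adjusted p = 0.0321). Averaged over the diets these and *Dio2*, of thyrotrophs, and *Aldh1a2*, of stem and folliculostellate cells, were higher in mutants. Of the 4 posterior lobe markers, 2 were higher in mutants on SD, and their median log2 difference was -0.31. In that list *Rax*, *Nkx2-1* and *Lhx2* were each at 0 in some mouse. *Fabp4* was the only adipocyte marker tested, because the mean of *Plin1* did not reach 1. The 3 red blood cell markers had a median log2 difference of 1.20 on SD, and 0 of them passed. The median was 0.61 for the 5 endothelial and 0.70 for the 5 leukocyte markers. Markers of most hormone cells went the other way on SD, with medians of -0.40 for lactotrophs and somatotrophs, -0.51 for corticotrophs and -0.71 for melanotrophs. It was -0.08 for gonadotrophs and 0.21 for thyrotrophs, and 0 markers of these 6 lists passed on SD. None of the 5 endothelial markers passed on SD, and 3 of 5 were higher in mutants averaged over the diets. The summed level of 5 endothelial markers was 101 to 123 in controls and 154 to 206 in mutants on SD, and 94.3 to 183 and 149 to 164 on HFD. The 5 leukocyte markers summed to 23.9 to 33.6 in controls and 34.1 to 84.6 in mutants on SD, and 2 of 4 adipocyte markers had a listed value, with *Adipoq* and *Lep* not listed. In bulk samples fewer cells of a type and less RNA per cell cannot be told apart, and the part of these cell types in the differences between genotypes was not tested.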

How the data were processed

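Pituitary RNA from 16 mice was sequenced as 1 library per mouse. Per the study's methods, Kallisto assigned the reads to genes of mm10 and Sleuth tested them; the authors deposited a normalized expression signal per gene and mouse. Its scaling and the tool versions are not given in the sources used here, and neither is the sequencing depth. Symbols and positions come from the gene table and from the M21 release of GENCODE (GRCm38); 11 of 17362 genes without a symbol were left out.

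Tests ran on log2(value + 0.5) for 14340 genes whose mean over the mice reached 1. A limma fit (version 3.58.1, R 4.3.3) gave each of the 4 groups its own mean and moderated variances along a trend with expression level, and p-values were adjusted by Benjamini-Hochberg per comparison. A fold change on this scale understates the change of low genes. Exact permutation tests were two-sided. Figures, promoter searches and correlations used Python 3.11.15, numpy 2.4.6, scipy 1.17.1, pandas 2.3.3 and matplotlib 3.10.9. The size of 1 read, as units multiplied by transcript length in kilobases, was searched between 0.04 and 0.1. An assumed fragment length of 250 bases was first taken off the transcript length. The lower limit was set after seeing that 3 libraries otherwise took a fraction of the evident step. Values within 0.15 reads of a whole number were counted as whole.

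The members and pathway lists were chosen with earlier results of these data known. A member's fold change and test are given in the text where its unadjusted p was under 0.05 or its groups did not overlap, and list genes are named where they passed an adjusted p of 0.05. The 45 correlations were planned. After their values were seen, 4 further versions were added: pairs without members whose values leave a gap over 20% or over 30% of their log2 range, pairs without members whose gap parts the same mice, and relations within each side of the *Stat5b* gap. In the last of these versions group means were not removed. Other alternatives are given with the dependence on processing. The result for 1 receptor gene of the lists is not reported here.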

Additional observations from a re-analysis of the deposited data

Results flagged for a closer look

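In 40 groups of 4 mice, 1 for each member and group, 6 values, from 5 mice, lay far from the other 3 of their group by Dixon's test at its 95% limit; chance flags about 1 in 20 groups, here 2. In *Insr* the mutant P384 on SD was 12.1, against 8.49 to 9.07 in the others. In *Irs1* the control P358 on SD was 3.08, against 2.48 to 2.58. In *Socs3* the mutant P382 on SD was 14.6, against 27.3 to 28.3. In *Stat5a* the control P356 on SD was 124, against 26.2 to 39.1. The mutant P357 on SD was 81.8 in *Stat5a*, against 125 to 129, and 31.4 in *Stat5b*, against 55.9 to 57.2.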

How the results depend on the processing

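Across 13 or 14 alternatives a comparison, no named member changed sign. Members past an adjusted p of 0.05 stayed at 0 in the 4 comparisons of diet and interaction. Without P357 and P392 they numbered 1 on SD (*Socs2*), 1 on HFD (*Irs1*, adjusted p = 0.0295 from limma) and 4 averaged over the diets (*Socs2*, *Stat5a*, *Stat5b* and *Irs1*). These counts are to be read beside all genes, of which 953 of 14330 passed on SD in that setting and 1050 on HFD. Averaged over the diets no alternative called more than 2655. Leaving out each mouse gave 0 to 1 members on SD, 0 on HFD and 0 to 2 averaged over the diets. Without P356 *Stat5a* passed on SD (log2 fold change 1.72, adjusted p = 0.0231 from limma), where 826 of all genes passed. Without P392 *Socs2* passed on SD (adjusted p = 0.0202 from limma), where 774 of all genes passed. The cause was not tested. Genes called on SD, 264 of all tested, ranged from 20 to 953 over the alternatives and from 33 to 826 leaving out each mouse, and those averaged over the diets, 938, from 186 to 2655 and from 441 to 1924; on HFD, 0 became up to 1050 and up to 649.

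The correlations depended on how they were run. The test over 45 pairs gave 4 pairs, and its alternatives gave 1 without the 2 mice farthest from the median (*Socs2* with *Stat5a*, none of the 4), 1 without P357 and P392 (*Stat5a* with *Stat5b*), 2 with scaling to genes other than *Prl*, *Gh* and mitochondrial ones, and 0 in the upper range of animal numbers. The 4 versions chosen after seeing the data gave 0 with a gap of 20% (5 members left out), 1 with 30% (1 left out), 0 with the same mice parted (2 left out) and 0 within sides of the *Stat5b* gap, where the 6 mice below it were too few for a single relation to pass. The lower range of animal numbers was not run. No paired analysis was possible because the labels give animal numbers and no replicate numbers shared between groups. Scalings moved the median of all genes by at most 0.098 (log2).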
